A study of Mus musculus with 2 samples.

Results

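The stefin A gene cluster is described here through 8 genes, Stfa1, Stfa2, Stfa3, Stfa2l1, Csta2, Csta3, Cstdc4 and Cstdc5, out of 32285 genes in the table. They were chosen by symbol, with their levels in these same libraries already known, so every difference between the libraries below is a description. The cells came from the marrow of female C57BL/6 mice, 10 weeks old. A 4-day culture with 50 ng/mL of both IL-6 and GM-CSF turned it into myeloid-derived suppressor cells (MDSC), a mixture of granulocytic (PMN) and monocytic cells. The culture held 1.5 µM dabrafenib (DAB), an inhibitor of the kinase BRAF, or its solvent DMSO. Each condition gave 1 single-cell library, made with the 10x Genomics 5′ v2 kit, so there is no replicate, no test and no p-value. All intervals are exact 95% intervals that cover counting error only, and PCR, culture and animal differences are outside them.

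Stefins are small cytosolic members of the cystatin superfamily. They inhibit cysteine proteases of the papain family, among them cathepsins B, H, L and S, by filling the active site cleft. Humans carry a single stefin A gene, whereas the mouse carries an expanded cluster of near copies, and several of these copies are known as transcripts of neutrophils and their precursors.

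The DMSO library kept 9032 cells and 91645192 unique molecular identifiers (UMIs), with a median of 7475 per cell, and the DAB library kept 10476 cells and 138877886 UMIs, with a median of 9353.5. The libraries shared 152 cell barcodes. The cells fell into 27 clusters, named A to Z and AA, and 23 of them had 50 or more cells from both libraries. The clustering left out the stefin A genes, so no cluster is defined by them. A cluster carries a cell type name only where its marker genes gave one, and otherwise its leading genes. Cluster S (Ighm, Igkc, Cd79a), B cell-like, was used as a rough level of free RNA, since its cells are not known for stefin A. Whether it is that level was not tested. The median depths of its cells were 3967 UMIs for DMSO and 4906 for DAB.

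All 8 genes lie on mouse chromosome 16 (GRCm38), from position 36156811 to 36455392, a span of 299 kb. Read along the chromosome they are Stfa2l1, Cstdc4, Csta3, Csta2 and Stfa1 on the plus strand, then Cstdc5, Stfa2 and Stfa3 on the minus strand. Their coding sequences are 291 to 384 bases long, and pairs of them were 56.2% to 96.9% identical, with a median of 78.6%. The closest pair was Csta2 and Cstdc4 at 96.9%, followed by Stfa2 and Stfa2l1 at 96.4%. RefSeq promoter windows were found for 8 of 8 genes. Over the 250 bases before the start, the promoters of Stfa2 and Stfa2l1 were 89.4% identical, while those of Csta2 and Cstdc4 were 40.96% identical. The printed stretches (GRCm38.p6) show this contrast in both near-identical pairs and in Cstdc5, which had the largest log2 ratio among the genes with at least 20 CPM (UMIs per 1000000 UMIs of the same cells) in both libraries. They are, in the order below, chr16:36408383-36408460 on the minus strand, chr16:36156710-36156787 on the plus strand, chr16:36184115-36184192 on the plus strand, chr16:36221484-36221561 on the plus strand, and chr16:36367570-36367647 on the minus strand. Capitals mark a stretch of 13 bases that 7 of the 8 promoters share letter for letter.
Stfa2: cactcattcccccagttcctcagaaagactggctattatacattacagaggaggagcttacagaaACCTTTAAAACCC
Stfa2l1: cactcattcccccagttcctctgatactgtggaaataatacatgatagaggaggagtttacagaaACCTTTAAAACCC
Cstdc4: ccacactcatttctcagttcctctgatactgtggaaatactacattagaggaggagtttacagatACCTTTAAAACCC
Csta2: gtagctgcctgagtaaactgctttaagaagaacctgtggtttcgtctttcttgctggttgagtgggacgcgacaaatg
Cstdc5: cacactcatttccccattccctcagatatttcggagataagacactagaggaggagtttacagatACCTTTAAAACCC

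The shared stretch ACCTTTAAAACCC stood in 9 of 32851 RefSeq promoters, namely those of 7 of the 8 genes, of Cstdc3 and of Gm7260, and the last 2 also lie inside the 299 kb. Csta2 lacks it, and its listed start is a different one, so its printed stretch is simply the 78 bases before that start. By the GENCODE positions, the printed stretches of Csta2 (gene start 36221468) and Cstdc5 (gene end 36367748) lie inside the genes. So does most of that of Stfa2 (gene end 36408457). The promoter identities hold for the listed RefSeq starts, and other starts were not compared. Within the shared stretch, TTTAAA begins 29 to 33 bases before the listed start of Stfa1, Stfa2, Stfa3, Stfa2l1 and Cstdc4, 9 bases before that of Cstdc5 and 77 bases before that of Csta3. This motif was added after the sequences had been seen, and 13.2% of all promoters hold it. GAGGAA, the core of PU.1 sites, was in 6 of the 8 promoters and in 28.3% of all promoters. Over the 250 bases before the start, pairs of promoters without Csta2 were 52.2% to 89.4% identical (median 70.6%). Motifs shared among them are therefore not independent hits. TTGCNNAA, a C/EBP motif whose reverse complement is TTNNGCAA, was in 3 of 8, those of Stfa1, Csta3 and Cstdc5, and in 10.8% of all. TGANTCA, an AP-1 motif, was in 1 of 8, that of Stfa3, and in 7.81% of all. TATAAA was in 0 of 8 and in 13.6% of all, and TGATGNAA, the amino acid response element read by C/EBP and ATF factors, was in 0 of 8 and in 3.97% of all. Both strands were searched over the whole windows of 300 bases, from 250 before to 50 after the start.

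Because the copies are so alike, it was checked how many 90-base stretches of each gene's transcripts (GENCODE M21) also occur in another gene, since a read from such a stretch has no unique gene. The share was 12.03% for Cstdc5, 7.89% for Csta2, 6.48% for Stfa1, 4.09% for Cstdc4, 2.42% for Stfa2l1 and 2.09% for Stfa2. No such stretch was found for Stfa3 or Csta3. The 1 transcript listed for Csta3 has 294 bases, 291 of them coding, so hardly any sequence outside its coding part was compared. The stretches were taken along whole transcripts, whereas a UMI of this kit marks the 5′ end, so these are not shares of reads. Stretches that differ by a few bases were not counted, so reads of Csta2 and Cstdc4, and of Stfa2 and Stfa2l1, may still be split with some error.

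Over all cells, the summed level of the 8 genes was 3083 CPM with DMSO and 8547 CPM with DAB. The stefin A genes thus held 0.308% of all UMIs with DMSO and 0.855% with DAB, a 2.77-fold ratio with a log2 value of 1.47 (1.465 to 1.477). At a log2 ratio of at least 0.5 with an interval leaving out 0, 8 of 8 genes were higher with DAB and 0 were lower. The same rule called 11.5% of the 5901 genes that reached 20 CPM in either library higher and 11.3% lower. At a log2 ratio of at least 1, 7 of the 8 were higher and 0 lower, against 2.47% and 2.64% of those genes. With 20 summed UMIs in place of the CPM minimum, 8 of 8 were higher, against 13.7% higher and 16.4% lower of all genes. The 8 genes ranked between 16 and 152 of the 5901 by log2 ratio, with a median of 2.41 against 0.0094 for all genes tested. These ranks follow from the choice of the genes and are given only to place them. A UMI of this kit marks the 5′ end of a transcript and is not scaled by length, so the levels of the genes can be set side by side only as UMIs.

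Cstdc4 was the most abundant gene of the cluster in both libraries, with 1846 CPM for DMSO and 3803 CPM for DAB, a log2 ratio of 1.04. Csta2, its near copy in the coding sequence, stood at 391 CPM and 1220 CPM, a log2 ratio of 1.64. Stfa2l1 stood at 384 CPM and 763 CPM, a log2 ratio of 0.99 and the smallest of the 8. These 3 genes made up the greater part of all stefin A UMIs in both libraries. Cstdc5 went from 217 CPM with DMSO to 1385 CPM with DAB, a log2 ratio of 2.67. Stfa2 was at 117 CPM and 648 CPM, with a log2 ratio of 2.47. Its near copy Stfa2l1 was thus 3.28 times as abundant as Stfa2 with DMSO and 1.18 times as abundant with DAB. Stfa3 was at 62.2 CPM and 375.0 CPM (log2 ratio 2.59), and Stfa1 at 56.6 CPM and 290 CPM (log2 ratio 2.36). Csta3 was the least abundant, with 8.98 CPM and 61.8 CPM, and its log2 ratio of 2.78 passed the minimum of 20 CPM only through the DAB library.

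**Figure D1:**
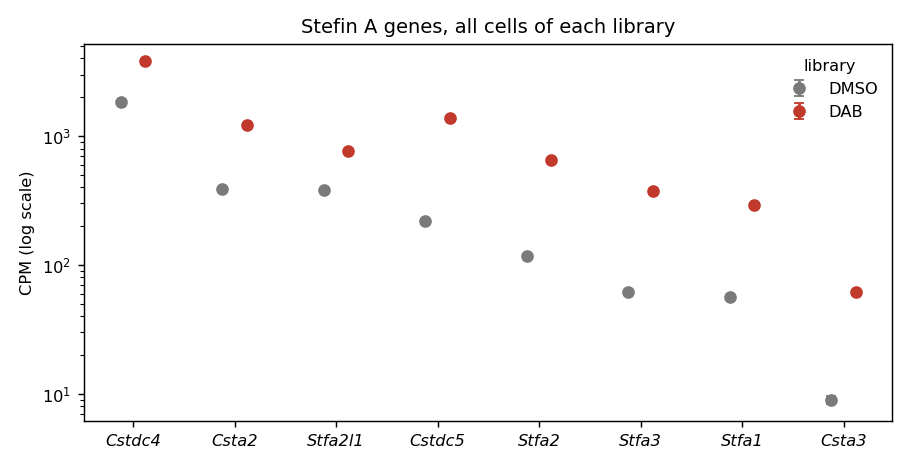
Level of each stefin A gene in the DMSO and the DAB library, in CPM on a log scale, with exact 95% Poisson intervals (mostly smaller than the points). All 8 points for DAB lie above those for DMSO, from Cstdc4 (1846 and 3803 CPM) to Csta3 (8.98 and 61.8).

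The make-up of the stefin A UMIs differed between the libraries as well. Cstdc4 gave 59.9% (59.7 to 60.0) of them with DMSO and 44.5% (44.4 to 44.6) with DAB, and Stfa2l1 gave 12.4% and 8.93%. Cstdc5 moved the other way, from 7.05% (6.96 to 7.15) to 16.2% (16.1 to 16.3), and so did Stfa2, from 3.795% to 7.58%, and Stfa3, from 2.02% to 4.39%. Csta2 held 12.7% and 14.3%. The 3 genes on the minus strand, Cstdc5, Stfa2 and Stfa3, had log2 ratios between 2.47 and 2.67, and the 3 most abundant genes on the plus strand between 0.99 and 1.64. Stfa1 and Csta3, also on the plus strand, were at 2.36 and 2.78.

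Across the 23 clusters, the summed level with DMSO was highest in cluster F (Mmp12, Nos2, Arg1), immature monocyte-like, at 4549 CPM. It was 4319 CPM in cluster A (Car4, Csf3r, Ly6i) and 4241 CPM in cluster Q (Retnla, Fn1, Alox15). With DAB the order was another one: cluster L (Chil3, Gal, Trf, Hp) was highest at 15819 CPM, followed by cluster B (S100a9, S100a8, Ly6g, Cxcr2) at 12924 CPM. Cluster Q stood at 12386 CPM and cluster H (Camp, Ltf, Ngp), intermediate granulocyte-like, at 12372 CPM, values whose counting intervals overlap. The lowest levels in both libraries were those of clusters S, W and V. B cell-like cells had 69.4 CPM with DMSO and 274 CPM with DAB, and cluster W (Mcpt8, Prss34), basophil or mast cell-like, had 24.9 CPM and 336 CPM. With DMSO, cluster W thus lay below the level used as background. Of the 47 stefin A UMIs of cluster S with DMSO, Stfa2l1 gave 31.9% and Cstdc4 59.6%. In the whole DMSO library they gave 12.4% and 59.9%. Cluster V (Ccr7, Fscn1), activated dendritic cell-like, had 482 CPM and 656 CPM.

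The sum was called higher with DAB in 22 of 23 clusters, and in the remaining one, cluster V, the log2 ratio was 0.45 (0.33 to 0.56). The 22 include cluster S, whose own level, read here as background, was 274 CPM with DAB, and cluster W, which lay close to it at 336 CPM and had 10 stefin A UMIs with DMSO. Over all pairs of gene and cluster, the rule called 13.3% higher and 13.7% lower, and within single clusters 6.91% to 25.4% higher. Cluster H went from 1896 CPM to 12372 CPM, a 6.52-fold ratio, where 25.4% of genes tested were called higher. Cluster B had a 5.92-fold ratio, cluster M (Retnlg, Ly6g, Mmp13) a 5.38-fold one and cluster L a 4.81-fold one. At the other end was cluster I (H2-Aa, H2-Ab1, Ccl17), mature monocyte-like, with 1436 CPM and 2054 CPM, a 1.43-fold ratio. Its log2 value of 0.52 fell under 0.5 in 3 other clusterings. The value was 0.71 with the stefin A genes clustered and 0.93 with libraries not aligned. Cluster F was there too, with 4549 CPM and 6861 CPM, a 1.51-fold ratio. Its log2 value of 0.59 became 1.21 for immature monocyte-like cells when clustered at Leiden resolution 0.5. Cells of other stages lay between. Cluster T (Elane, Mpo), granulocyte progenitor-like, had 1558 CPM and 4945 CPM, and cluster K (H2-Q10, Myl10, Pycr1), named likewise, had 2590 CPM and 9617 CPM. The name of cluster K is the weaker one: 3 of 5 markers reached a log2 fold of 1, with a mean of 0.80. In cluster T it was 5 of 5, with a mean of 4.88. Cluster G (Fpr1, Csf3r, Mmp9), mature PMN-like, had 2343 CPM and 6677 CPM (log2 ratio 1.51, but 0.19 with the stefin A genes clustered), cluster D, cycling myeloid progenitor-like, 4121 CPM and 11113 CPM, and cluster U (C1qa, C1qb), macrophage-like, 1532 CPM and 5396 CPM. Cluster Y (Epx, Prg2), eosinophil-like, held 5 DMSO and 35 DAB cells and was left out of the counts. Several clusters consist mostly of cells of a single library, such as cluster F with 1084 DMSO and 197 DAB cells, and what is particular to such a cluster and to its library cannot be told apart.

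**Figure D2:**
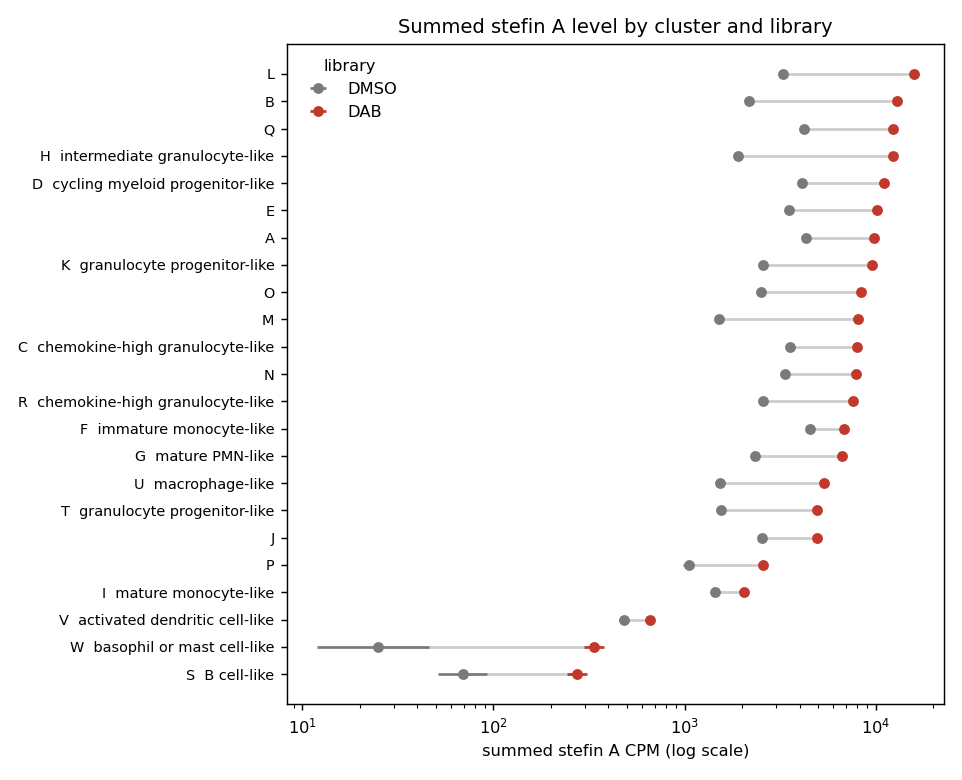
Summed level of the 8 stefin A genes in the 23 clusters with 50 or more cells from both libraries, in CPM on a log scale, with exact 95% Poisson intervals; names are given where the markers allowed one. DAB lies to the right of DMSO in every row, from cluster L (3286 and 15819 CPM) down to the B cell-like cluster S (69.4 and 274).

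When each cluster was given the same weight in both libraries, the mean of its shares of cells, the summed levels were 2885 CPM and 8618 CPM, a log2 ratio of 1.58. The DMSO levels combined with the cluster sizes of the DAB library gave 2894 CPM, a log2 ratio of -0.09 to the DMSO library itself. Over 4 other clusterings without the stefin A genes, this value ran from -0.21 to -0.01. When the stefin A genes took part in the clustering, and so in defining the clusters, equal weights gave a log2 ratio of 0.76, and the DMSO levels with the DAB cluster sizes gave 6004 CPM, a log2 ratio of 0.96 to the DMSO library.

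Each gene had its own distribution over the clusters. Of 165 pairs of gene and cluster with 20 CPM or more in either library, 157 were called higher with DAB, 2 lower and 6 neither, beside 13.3% higher and 13.7% lower over all genes. Of these pairs, 44 passed the minimum in a single library, for 43 the DAB library, where the genes are high. Of the 121 that passed it in both, 114 were called higher, 2 lower and 5 neither, beside 10.6% higher and 11.3% lower over all genes. A pair under the minimum in both is not counted, such as Stfa3 in cluster I at 5.85 CPM and 2.49 CPM. Cstdc4 led nearly everywhere, with its highest values in cluster F for DMSO (3213 CPM) and in cluster Q for DAB (6538 CPM), and it was called higher in 20 of 23 clusters. Csta2 was called higher in 23 of 23 clusters. Its highest cluster N (Tspan18, Ppbp, Ccnd1) stood at only 1.97 times its median over clusters with DMSO (609 CPM) and 1.81 times with DAB (1957 CPM). For the highest clusters of Cstdc4 these values were alike, at 2.06 and 1.78. The lowest level of Csta2 with DMSO was 2.49 CPM, in cluster W. Cstdc5 was highest in clusters H (611 CPM with DMSO, 3446 CPM with DAB) and L (568 CPM and 3512 CPM), and was called higher in 21 of 21 clusters tested. Stfa2 was highest in clusters M (365 CPM), B (328 CPM) and H (297 CPM) with DMSO and in clusters H (2192 CPM) and B (1785 CPM) with DAB, and was called higher in 21 of 21. Stfa3 was highest in cluster C (Cxcl3, Ccl2, Mmp13), chemokine-high granulocyte-like, with DMSO (277 CPM) and in cluster M with DAB (903 CPM), and was called higher in 19 of 19. Stfa1 was the most uneven, at 246 CPM in cluster H and 194 CPM in cluster T with DMSO, 12.7 times its median for cluster H. With DAB it reached 1325 CPM in cluster L and 876 CPM in cluster T, and it was called higher in 19 of 20 clusters. The exception was cluster C, with 103 CPM in both libraries. Csta3 never passed 21.1 CPM with DMSO or 123 CPM with DAB, both in cluster K. It was called higher in 16 of 16 clusters tested, of which 15 passed the minimum through the DAB library alone, so that this count largely follows from the minimum. The counts of the other genes also hold such clusters, 9 of 20 for Stfa1. With the minimum in both libraries, Stfa1 was called higher in 10 of 11 clusters and Stfa2 in 16 of 16. Stfa3 then had 13 of 13, Cstdc5 17 of 17 and Csta2 21 of 21. For Cstdc4 it was 19 of 22 and for Stfa2l1 17 of 20.

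Both lower calls belonged to Stfa2l1, in the monocyte-like clusters. In cluster F it stood at 585 CPM with DMSO and 307 CPM with DAB, a log2 ratio of -0.93, in a cluster where 10.7% of genes tested were called higher and 17.2% lower. In cluster I it stood at 65.5 CPM and 34.7 CPM, a log2 ratio of -0.92, where 14.5% were called higher and 18.2% lower. In the same clusters Stfa2 went from 68.2 CPM to 242 CPM in cluster F and from 6.34 CPM to 46.0 CPM in cluster I. In 18 of the 22 clusters where it was tested, Stfa2l1 was called higher with DAB, up to a log2 ratio of 2.94 in cluster H. Cstdc4 in cluster I was 746 CPM and 728 CPM, a log2 ratio of -0.03, so that Csta2, at 534 CPM and 1051 CPM, became the leading stefin A gene of the mature monocyte-like cells. Csta2 also led in cluster V, at 250 CPM and 451 CPM, where Stfa1, Stfa2, Stfa3, Stfa2l1, Csta3 and Cstdc5 stayed under 20 CPM in both libraries.

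**Figure D3:**
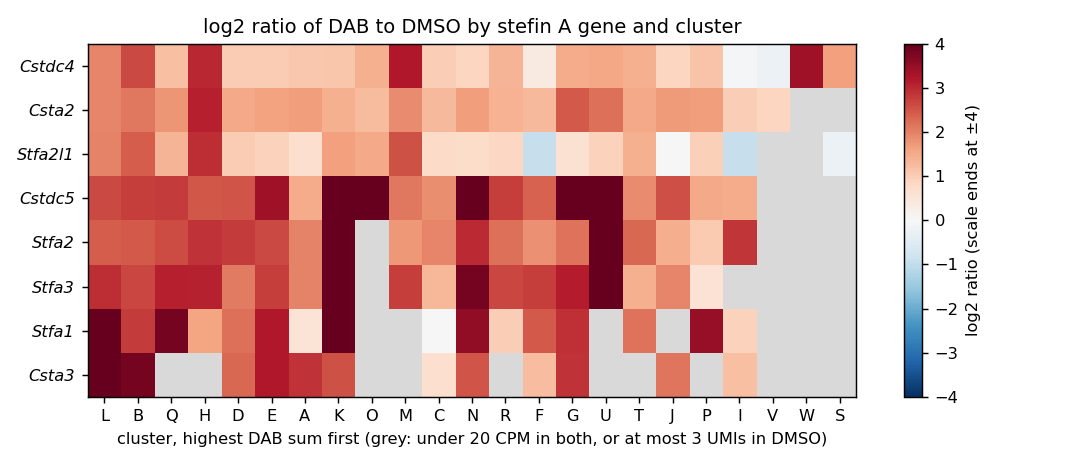
log2 ratio of DAB to DMSO for each stefin A gene (rows) in each of the 23 clusters (columns), with grey where a gene was under 20 CPM in both libraries or had at most 3 UMIs in the DMSO library. Red, higher with DAB, fills nearly all tested fields, and the clearest blue fields are those of Stfa2l1 in clusters F (-0.93) and I (-0.92).

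Over the 23 clusters of the DMSO library, some genes varied together more closely than others. Pearson's r of log2(CPM + 10) was 0.93 for Stfa2 with Stfa3 and 0.90 for Stfa2 with Cstdc5, the 3 genes of the minus strand. It was 0.88 for Cstdc4 with Stfa2l1, neighbours at the other end of the locus, and 0.87 for Cstdc4 with Csta2, but 0.63 for Stfa2l1 with Csta2. Other neighbours had lower values, with an r of 0.43 for Csta3 with Cstdc4, 0.44 for Csta3 with Csta2 and 0.23 for Stfa1 with Csta2. The median of Csta3 was 6.11 CPM over 22 DMSO clusters, below the 10 CPM added before the log, so its spread is narrowed. An r of 0.41 was found for Cstdc4 with Cstdc5 and of 0.38 for Cstdc4 with Stfa2, while Stfa2l1 had 0.60 with Stfa3 and 0.56 with Cstdc5. Stfa2 and Stfa2l1, despite their near-identical coding and promoter sequences, had an r of 0.61. Stfa1 went most closely with Cstdc5, at 0.75. In the DAB library most of these values were higher, with an r of 0.80 for Cstdc4 with Cstdc5 and 0.90 for Stfa2 with Stfa2l1. Csta3 had 0.75 with Cstdc4 and 0.72 with Csta2 there. These values are descriptions over clusters of a single library each, which share its depth and its free RNA.

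The level of single cells was compared after every cell had been thinned to 1500 UMIs, and 436 DMSO and 292 DAB cells with fewer were dropped. A UMI of any of the 8 genes was present in 43.9% (42.9 to 45.0) of the 8596 remaining DMSO cells. Among the 10184 remaining DAB cells the share was 73.1% (72.2 to 73.9). The unthinned shares were 59.5% and 86.8%. In B cell-like cells they were 4.69% and 16.7% after thinning, the level set here as background. The counts per cell were very uneven. The median was 0 UMIs with DMSO and 4 with DAB, the 90th percentile 13 and 35, and the highest cell held 120 and 185 of its 1500 UMIs as stefin A. The 10% of cells with the highest counts held 66.3% of all stefin A UMIs of the DMSO library and 46.4% of those of the DAB library.

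Cells with at least 10 stefin A UMIs of 1500, a limit set after the counts had been seen, are called stefin A-rich here. Their share was 13.7% (12.98 to 14.4) with DMSO and 35.5% (34.5 to 36.4) with DAB, and they held 76.5% and 89.0% of all stefin A UMIs. They are a range and not a cell type: 5.67% of DMSO cells and 8.86% of DAB cells had 8 to 12 UMIs, close to the limit. Among stefin A-rich cells the mean count was 22.7 UMIs with DMSO and 29.97 with DAB, and among the others it was 1.11 and 2.04. No B cell-like cell was stefin A-rich, 0 of 128 with DMSO, which allows a share of up to 2.34% by the limit of 3 counts (exact upper bound 2.84%), and 0 of 174 with DAB, which allows up to 1.72% (exact upper bound 2.10%).

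**Figure D4:**
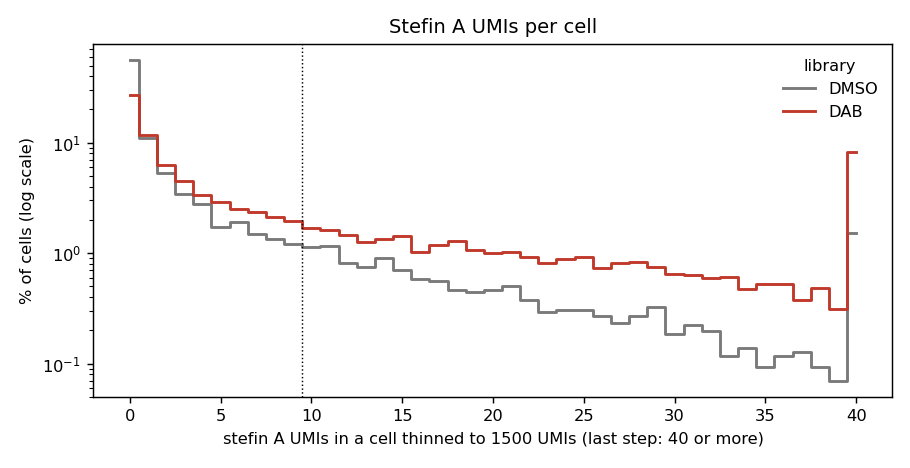
Share of cells, on a log scale, with each number of stefin A UMIs after thinning to 1500 UMIs per cell; the last step collects 40 or more, and the dotted line marks the limit of 10. The DMSO library has more cells at 0 (56.1% against 26.9%), and the DAB library has more cells at every count from 1 upwards.

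Stefin A-rich and stefin A-poor cells lay side by side in nearly every myeloid cluster. With clusters S, V and W set aside, the share of rich cells ran from 4.29% to 25.3% over 20 clusters with DMSO (median 12.4%) and from 5.25% to 51.5% with DAB (median 36.1%). The share was higher with DAB in 21 of 23 clusters, and its intervals did not overlap between the libraries in 17. These intervals count cells within single libraries, which are not replicates of a condition. The same counts were not made for other genes. In cluster H it was 5.79% of 812 cells with DMSO and 38.5% of 231 cells with DAB. Of the DMSO cells of cluster H, 80.7% had no stefin A UMI at all, and its top 10% held 94.7% of the UMIs. In cluster F the share was 25.3% (22.8 to 28.1) and 32.8% (26.3 to 39.9), intervals that overlap, and in cluster I it was 4.29% and 5.25%. In 20 clusters with at least 5 rich cells in each library, the share differed by a median of 2.75-fold and the mean count of the rich cells by a median of 1.36-fold. That mean leaves out every cell below the limit. These ratios therefore cannot tell more rich cells from more UMIs per cell.

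Which genes a stefin A-rich cell held also varied. Cstdc4 was the leading gene in 80.8% of 1178 rich DMSO cells and in 73.1% of 3611 rich DAB cells, and Cstdc5 led in 7.05% and 11.4%. Of the rich cells, 78.2% had no UMI of Stfa2 with DMSO and 57.4% had none with DAB. Stfa3 was found with Stfa2 more than by itself: with DMSO, 39.9% of cells with Stfa2 also had Stfa3, against 1.61% of cells without Stfa2, and with DAB the shares were 49.2% and 7.06%. Likewise 40.96% of DMSO cells with Cstdc4 had Stfa2l1, against 3.38% of those without. Cstdc4 was seen in 55.2% of DMSO cells with Stfa2 and in 30.6% of those without it. With and without Cstdc5, the shares of DMSO cells were 62.2% and 30.4% for Cstdc4 and 47.4% and 13.8% for Stfa2l1. For Csta2 with and without Cstdc4 they were 40.3% and 11.0%. Whether these gaps go with the distance between the genes was not tested. The median cell held UMIs of 0 of the 8 genes with DMSO and of 2 with DAB.

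Stefin A-rich cells were set beside the cells with 0 or 1 stefin A UMI of the same cluster and library, wherever both numbered at least 100, which left 3 DMSO and 10 DAB groups. The median of the log2 ratio of rich to poor cells over these 13 groups was at least 0.5 in size for 15 of 5893 genes outside the locus. The largest belonged to Fam162a, which codes for a mitochondrial protein known as a target of the hypoxia factor HIF-1, and this gene, like the others named from this comparison, is named after its values had been seen. Its median log2 ratio was 1.16, from 0.54 to 1.86, and it was the only gene past 1. It was higher in rich cells in 13 of 13 groups. Of the 5893 genes, 13 were higher in all groups, this gene among them, and 7 were lower in all groups. In cluster F of the DMSO library, Fam162a stood at 1059 CPM in poor cells, 1701 CPM in cells with 2 to 9 stefin A UMIs and 2647 CPM in rich cells. In cluster A it stood at 905 CPM, 1189 CPM and 1915 CPM with DMSO and at 903 CPM, 1228 CPM and 2074 CPM with DAB. The next genes by median were less regular, while Plxdc2, further down at 0.43, was also higher in 13 of 13 groups. Mgl2 had a median of 0.62 and was higher in 9 of 13 groups. S100a9 had 0.58, in 8 of 13, but its median was -0.17 over the 3 DMSO groups and 0.67 over the 10 DAB groups. Cxcr2 had 0.54, in 10 of 13, with 0.03 over the DMSO groups and 0.56 over the DAB groups. Among the genes lower in rich cells, Mmp13 had the lowest median, -0.98, and was lower in 9 of 13 groups. Gpnmb had -0.94, in 11 of 13, and Lgmn, which codes for the cysteine protease legumain, -0.66, in 12 of 13. Cystm1 had -0.61, in 8 of 13, Scpep1 -0.53, in 10 of 13, and Ly6g -0.51, in 10 of 13. Ddit3, a stress response factor, had -0.50, in 12 of 13, and Crip1 -0.50, in 8 of 13. Over the 3 DMSO groups alone, the medians were -0.23 for Mmp13, 0.02 for Cystm1, -0.02 for Scpep1 and 0.23 for Crip1. For Gpnmb they were -0.86, for Lgmn -0.41, for Ly6g -0.80 and for Ddit3 -0.84. Over the 10 DAB groups the medians of these lower genes ran from -1.03 (Gpnmb) to -0.37 (Ddit3). Median depths in cluster A were 5118 UMIs for rich and 5020 for poor DMSO cells, whereas in cluster E (Gm15564, Lars2, Cmss1) they were 9304 and 6715. The part of depth and of cell stage within a cluster in these ratios was not tested.

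Fam162a is also a neighbour of the stefin A genes, ending 85 kb before the start of Stfa2l1 on chromosome 16 (36043761 to 36071594, minus strand). Ccdc58, which lies between them (36071685 to 36092120), had a median log2 ratio of rich to poor cells of 0.02 and was higher in 9 of 13 groups. No stretch of 30 or of 90 bases in the 4 transcripts of Fam162a (GENCODE M21) occurs in those of the 8 genes. The alignments were not examined, so reads or annotation that join Fam162a to the stefin A genes were not tested. Over the whole libraries Fam162a stood at 1111 CPM with DMSO and 1170 CPM with DAB, a log2 ratio of 0.07 (0.06 to 0.09). In stefin A-rich cells of all clusters it was at 2117 CPM with DMSO and 1643 CPM with DAB. In cells with 2 to 9 stefin A UMIs it was at 1270 CPM and 1029 CPM. Poor cells had 788 CPM and 731 CPM. The share of rich cells was 13.7% with DMSO and 35.5% with DAB. Cluster make-up was not held equal in these values. Whether Fam162a goes with the stefin A genes between the libraries was not tested. Within 500 kb of the locus, 8 genes outside the family had at least 20 CPM, of which 1 was called higher with DAB and 2 lower (11.5% and 11.3% over all genes); all 3 are named for these calls. The higher one was Cd86, a costimulatory ligand of antigen-presenting cells, at 29.9 CPM and 67.1 CPM. The lower ones were Gm15564, at 182 CPM and 109 CPM, and Golgb1, at 109 CPM and 75.9 CPM. In rich against poor cells the 7 neighbours other than Fam162a had medians between -0.17 and 0.12.

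**Figure D5:**
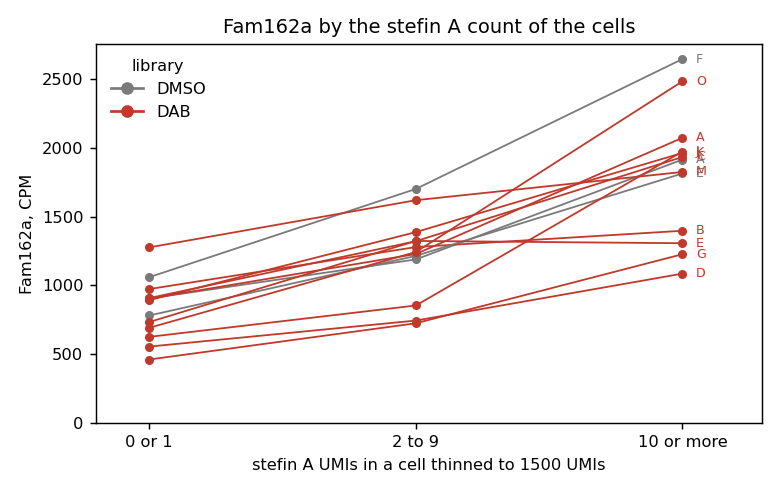
Fam162a level, in CPM, in cells with 0 or 1, 2 to 9, and 10 or more stefin A UMIs (after thinning to 1500 UMIs per cell), 1 line per cluster and library, with the cluster letter at its right end. In all 13 lines the rightmost point is above the leftmost, as in cluster F with DMSO (1059 and 2647 CPM).

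The 10 genes outside the locus whose level over the 46 groups of cluster and library was most like the stefin A sum were Ywhab, Csf2ra, Clec5a, Cyba, Glrx, B430306N03Rik, Ralb, Plaur, Gipc1 and Rab5if. Pearson's r of log2(CPM + 10) ran from 0.88 for Ywhab, a 14-3-3 protein, to 0.81 for Rab5if. Csf2ra, the GM-CSF receptor alpha chain, had an r of 0.85, and Clec5a, a myeloid lectin receptor, also 0.85. Within the 23 DMSO groups alone these were 0.83 and 0.80, and within the 23 DAB groups 0.85 and 0.91. Plaur, the urokinase receptor, had 0.81 and a level of 406 CPM with DMSO and 785 CPM with DAB. The groups share libraries and the lymphoid and mast cell-like clusters at the low end.

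Other members of the cystatin superfamily, cysteine cathepsins with legumain, and cathepsins of other classes were read from fixed lists. Of 14 other cystatins, 3 reached 20 CPM and 0 were called, with 11.5% of all genes called higher and 11.3% lower. Cstb, the stefin B gene and the closest relative in function, was nearest to a call at 625 CPM and 881 CPM, a log2 ratio of 0.50 just under the limit. Cst3, the secreted cystatin C, was at 1538 CPM and 1781 CPM (0.21), and Cst7, cystatin F of lysosomes, was at 63.6 CPM and 60.0 CPM (-0.08). Of 11 cysteine cathepsins and legumain, 7 were tested, 0 were called higher and 3 lower. The lower ones were Ctsc, which activates the granule serine proteases, at 325 CPM and 177 CPM (-0.87), Ctss, which trims the invariant chain in antigen-presenting cells, at 356 CPM and 196 CPM (-0.86), and Ctsh, an aminopeptidase, at 167 CPM and 91.8 CPM (-0.86). Ctsb was at 344 CPM and 274 CPM (-0.33), and Ctsl at 455 CPM and 420 CPM (-0.12). Of 4 cathepsins of the serine and aspartic classes, which stefins do not bind, 3 were tested and 1 was called higher, Ctsg of neutrophil primary granules, at 22.4 CPM and 44.5 CPM (0.99). Of 11 further symbols of the stefin A locus, several of them older names of the same genes, 2 were in the table: Cstdc6 had 33 UMIs with DMSO and 297 with DAB, and Csta1 had 0 and 2.

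Marker genes of myeloid cells, named after their values had been seen, moved both ways over all cells. Ly6c2, a surface marker shared by monocytes and immature granulocytes, was at 348 CPM with DMSO and 615 CPM with DAB. Ly6g was at 141 CPM and 104 CPM, Csf3r at 61.1 CPM and 29.8 CPM, Chil3 at 4006 CPM and 1510 CPM, and S100a9 at 20895 CPM and 17220 CPM. In the 4 clusters richest in stefin A with DAB, Ly6c2 was at 582 CPM and 1516 CPM (L), 849 CPM and 1544 CPM (B), 199 CPM and 682 CPM (Q), and 1305 CPM and 2760 CPM (H). In cluster F, richest with DMSO, it was at 193 CPM and 135 CPM. In cluster J (Atp6v0d2, Mpeg1), Ly6c2 was at 143 CPM and 78.0 CPM, while the stefin A sum was 2551 CPM and 4942 CPM. Between rich and poor cells of a cluster, Ly6c2 differed in both directions. With DAB it was at 1280 CPM in rich and 290 CPM in poor cells of cluster K, but at 1513 CPM and 2258 CPM in cluster M. Whether Ly6c2 goes with the stefin A genes was not tested.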

How the data were processed

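The deposited values are counts of UMIs for every gene and barcode, not normalized. The authors aligned and counted the reads to mm10 with Cell Ranger 7.0.0. How many mice stand behind a library is not stated in the sources. The 8 genes and all gene lists were chosen with earlier results of these data known.

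A mitochondrial share over 10% removed 55 DMSO and 89 DAB barcodes, a limit of 4 median absolute deviations removed none, and the highest scores against simulated doublets were removed (768 and 1066). Pearson residuals of 3000 variable genes, without the stefin A genes, were reduced to 40 components, aligned by mutual nearest neighbours (k = 20) across libraries and clustered with Leiden at resolution 0.9. This used Python 3.11.15, numpy 2.4.6, scipy 1.17.1, scikit-learn 1.9.0, igraph 0.11.9, leidenalg 0.10.2 and matplotlib 3.10.9, in place of the authors' Seurat workflow. Cluster names follow 16 marker lists and a rule set after clusters of these data had been seen: at least 3 markers at a log2 fold of 1 and no other class ahead among the 10 leading genes.

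CPM are summed UMIs over the summed total of the same cells. Counts carry exact Poisson intervals, shares exact binomial (Clopper-Pearson) ones and ratios exact conditional binomial ones, and a count of 0 allows 3. A gene was tested for a call with at least 20 CPM in a library (for clusters, in that cluster), and a ratio within a cluster was plotted only with over 3 UMIs in the DMSO library. No test between conditions was possible with 1 library each. The genes named in the text are the 8 genes, those of the lists, the 10 most like the sum, and, after their values were seen, neighbours of the locus that were called, genes that differed most between rich and poor cells, and myeloid markers. For rich against poor cells the stefin A UMIs were taken off the totals and 10 CPM were added to both sides. In simulated library counts, 100% of 50 genes with a true log2 ratio of 1 and 0% of 5354 unchanged genes were called. For simulated rich and poor cells, 100% of 200 genes with a true log2 ratio of 1 and 0% of 5327 unchanged genes passed 0.5. Both simulations drew Poisson counts from a shared mean profile, without differences between cultures, animals or single cells. They check the arithmetic only, and their 0% is no rate of false calls between the real libraries.

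Promoters are RefSeq windows on GRCm38.p6, gene positions and transcripts are from GENCODE M21 on GRCm38, and Cell Ranger's own annotation may differ from both. Alternatives were no cell filters, doublets kept, other scalings, a mean over cells, other clusterings, no thinning or 3000 UMIs, and a minimum of 5 UMIs. Leaving out barcodes found in both libraries, taking off the B cell-like level, the minimum of 20 CPM in both libraries and exchanged cluster sizes in other clusterings were added after the data were seen.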

Additional observations from a re-analysis of the deposited data

Results flagged for a closer look

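Stfa2l1 was higher with DAB in 18 clusters and lower in 2, which is why it is listed here. In cluster F, immature monocyte-like, its log2 ratio was -0.931, from 11327 UMIs of 1084 DMSO cells and the 197 DAB cells of that cluster. In cluster I, mature monocyte-like, it was -0.919, from 672 UMIs of 517 DMSO cells. The difference between these clusters and the others was not tested, since each condition has 1 library.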

How the results depend on the processing

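No paired analysis was possible because each condition has 1 library and the labels give no replicate numbers. Of the results named, 1 changed its direction: the DMSO levels with the DAB cluster sizes, -0.09 on the log2 scale to the DMSO library, gave 0.96 with the stefin A genes clustered, an alternative chosen after seeing the data. The summed log2 ratio over all cells, 1.47, was 1.49 without cell filters, 1.49 with doublets kept, 1.46 with the median of ratios, 1.479 with the total taken without stefin A UMIs, 1.55 as a mean over cells and 1.46 with the B cell-like level taken off, each outside its narrow counting interval, and 1.47 without the barcodes found in both libraries. The number of genes called higher was 8 in all settings but a log2 fold of 1, where it was 7, and 0 were called lower in any. The ratio with equal cluster weights, 1.58, was 0.76 with the stefin A genes clustered, 1.57 without the genes that differ 2-fold, 1.62 and 1.63 at Leiden resolutions 0.5 and 1.5, 1.56 with libraries not aligned and 1.59 with the total taken without stefin A UMIs. Every named class, 9 to 11 in number, had a ratio above 0 in every clustering, but not always past 0.5. Mature PMN-like cells went from 1.51 to 0.19 with the stefin A genes clustered. Immature monocyte-like cells went from 0.59 to 1.21 at resolution 0.5. Mature monocyte-like cells went from 0.52 to 0.21 without the genes that differ 2-fold and to 0.47 and 0.34 at resolutions 0.5 and 1.5. They reached 0.71 with the stefin A genes clustered and 0.93 with libraries not aligned. Without the genes that differ 2-fold, chemokine-high granulocyte-like cells went from 1.27 to 0.74. With libraries not aligned, B cell-like cells went from 1.98 to 0.66. Activated dendritic cell-like cells, at 0.45, reached 0.60 and 0.84 under these last alternatives. The difference between the shares of cells with a stefin A UMI was 29.1 percentage points, 27.3 without thinning, 28.2 at 3000 UMIs and 25.8 with at least 5 UMIs. The cause of these shifts was not tested. Csta3, with 823 UMIs in the DMSO library, is the gene that depth limits most.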

Other observations

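Cluster Y, eosinophil-like by Epx, Prg2 and Prg3, held 35 DAB cells with a summed stefin A level of 10579 CPM, and its 5 DMSO cells had no stefin A UMI. Cluster X, T or NK cell-like, held 18 DMSO and 24 DAB cells at 468 CPM and 1726 CPM. Both are too small for the counts of the report.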
